A study of Mus musculus with 21 samples.

Results

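The transcripts of 9 interferon-stimulated genes, *Herc6*, *Irf1*, *Irf7*, *Isg15*, *Ifit1*, *Ifit2*, *Ifih1*, *Bst2* and *Oasl2*, were followed in mouse embryonic stem cells (mESCs) depleted of subunits of cohesin, the ring complex that folds chromosomes into loops. The members were the rows of these 9 symbols among the 23412 genes counted by RNA-seq. All 9 were in the count tables, 8 had enough reads for the test, and *Irf7* did not. *Herc6* was chosen by its measured level in Pds5b-KO siGLO against WT siGLO libraries, where it was lower, and the others were listed with it as innate immune genes, so every value from a comparison with the *Pds5b* knockout libraries is given as a description, and no result is drawn from it. The WT siGLO libraries were the other side of that choice, so tests of *Herc6* that use them are not independent of it.

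All samples were v6.5 mESCs, a male line grown on gelatin-coated dishes, and all had been transfected with 50 nM of an siRNA reagent and collected 48 h later. The 7 conditions, with 3 libraries each, were WT siGLO, WT siPds5b, Pds5a-KO siGLO, Pds5b-KO siGLO, Pds5a-KO siPds5b, Pds5a-KO siStag1 and Pds5a-KO siStag2, where KO is a CRISPR knockout, siGLO is the transfection control and the other siRNAs are directed against *Pds5b*, *Stag1* or *Stag2*. PDS5A and PDS5B are alternative accessory subunits of cohesin, as are STAG1 and STAG2, and Pds5a-KO siPds5b cells are called dual-depleted here. The 3 libraries of each knockout came from a single clone, so the gene and the clone cannot be told apart, and p-values measure the spread between these libraries only.

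Between 17311090 and 23989198 reads were counted per library. Normalized counts of *Pds5b* were 2219 ± 177 (SD, n = 3) in WT siGLO, 776 ± 79.7 in WT siPds5b, 2366 ± 273 in Pds5a-KO siGLO, 903 ± 169 in dual-depleted and 276 ± 37.2 in Pds5b-KO siGLO mESCs. *Stag1* was at 575 ± 59.7 under siStag1 against 2428 ± 118 in Pds5a-KO siGLO, and *Stag2* was at 875 ± 69.8 under siStag2 against 3256 ± 316. *Pds5a* transcripts stayed at 4271 ± 500 in Pds5a-KO siGLO against 5059 ± 295 in WT siGLO, so their level is a weak check of that label. The 9 mESC markers examined were detected in every condition, with summed normalized counts between 84110 and 154461, while 9 markers of blood cells and macrophages summed to 218 to 536, with 2 to 5 of them at 10 reads or fewer in a condition.

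Interferon-stimulated genes form the cell's transcriptional answer to viral nucleic acid. Sensors in the cytosol, such as MDA5, the product of *Ifih1*, recognize double-stranded RNA and signal through interferon regulatory factors to the interferon genes, and secreted interferon then acts through its receptors, the JAK kinases and STAT factors. A complex of STAT proteins with IRF9 and the interferon regulatory factors bind interferon-stimulated response elements (ISREs), and STAT dimers bind gamma-activated sites (GAS). Pluripotent stem cells are known for producing little interferon and for a muted answer to it. Among the members, *Irf1* and *Irf7* encode transcription factors of the pathway, and *Isg15* encodes a ubiquitin-like modifier that HERC6, its main ligase in the mouse, attaches to other proteins. *Oasl2* encodes a relative of the oligoadenylate synthetases, *Ifit1* and *Ifit2* encode proteins that act on foreign RNA and its translation, and *Bst2* encodes tetherin, which holds budding viruses at the cell surface.

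The promoters of 6 members are shown because they differ in these elements. The windows are 120 bases long, from 150 to 31 bases before the RefSeq transcript start in GRCm38.p6, read on the strand of the gene, 5′ to 3′. Capitals mark matches to the ISRE core, GAAA, any 2 bases and GAAA again, or to the GAS letters, TTC, any 3 bases and GAA, searched on both strands. *Isg15* (chr4:156200849-156200968, minus strand), *Ifit1* (chr19:34640739-34640858, plus strand) and *Bst2* (chr8:71537503-71537622, minus strand) hold ISRE matches, *Irf1* (chr11:53769864-53769983, plus strand) holds a GAS match, and *Herc6* (chr6:57580842-57580961, plus strand) and *Oasl2* (chr5:114896784-114896903, plus strand) hold neither.
Isg15: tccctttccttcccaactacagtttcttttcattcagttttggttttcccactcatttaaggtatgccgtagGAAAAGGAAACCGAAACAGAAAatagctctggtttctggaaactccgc
Ifit1: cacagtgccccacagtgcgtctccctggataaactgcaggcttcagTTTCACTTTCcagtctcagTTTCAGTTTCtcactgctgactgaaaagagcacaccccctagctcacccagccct
Bst2: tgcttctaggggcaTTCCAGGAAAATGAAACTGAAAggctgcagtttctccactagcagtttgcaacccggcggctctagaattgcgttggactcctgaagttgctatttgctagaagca
Irf1: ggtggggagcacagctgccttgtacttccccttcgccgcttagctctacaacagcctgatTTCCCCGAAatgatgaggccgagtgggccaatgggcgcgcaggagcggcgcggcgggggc
Herc6: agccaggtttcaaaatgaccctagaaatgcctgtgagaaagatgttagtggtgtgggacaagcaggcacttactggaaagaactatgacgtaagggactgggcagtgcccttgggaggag
Oasl2: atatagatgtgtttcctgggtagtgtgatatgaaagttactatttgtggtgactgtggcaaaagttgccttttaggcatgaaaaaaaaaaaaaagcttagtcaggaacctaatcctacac
In the run of capitals of *Isg15*, 3 overlapping ISRE matches begin 78, 72 and 66 bases before the start. In *Ifit1*, 2 matches on the minus strand begin 104 and 85 bases before it, and in *Bst2* the 2 matches at 130 and 124 bases overlap a GAS match at 136 bases. Over the whole promoter window, from 250 bases before to 50 after the start, 4 of the 9 members held an ISRE match, *Ifih1* being the fourth at 33 bases after the start, against 1131 of 32851 promoters (3.44%). A GAS match was found in 3 members, *Irf1*, *Ifit2* and *Bst2*, and in 8.3% of all promoters. Of 45 other interferon-stimulated genes with a promoter sequence, 25 held an ISRE match and 7 a GAS match. A match is a description of letters, and nothing about binding was measured here.

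In GRCm38 coordinates, *Herc6* is a protein-coding gene on chromosome 6 (57581000 to 57664632, plus strand). *Irf1* lies on chromosome 11 (53770014 to 53778374, plus strand), *Irf7* on chromosome 7 (141262706 to 141266481, minus strand) and *Isg15* on chromosome 4 (156199424 to 156200818, minus strand). *Ifit1* (34640871 to 34650009) and *Ifit2* (34550694 to 34576419) are neighbours on the plus strand of chromosome 19. *Ifih1* lies on chromosome 2 (62595798 to 62646255, minus strand), *Bst2* on chromosome 8 (71534255 to 71537456, minus strand) and *Oasl2* on chromosome 5 (114896936 to 114912234, plus strand). Of the 100-base words in the exons of *Herc6*, 10.3% were shared with the overlapping transcript *Gm45193*, and 3.29% of those of *Ifit1* were shared with *Ifit1bl2*. The exons of *Irf7* overlap those of *Phrf1* on the other strand, and those of *Irf1* overlap *Gm17334*. Whether counting used the strand is not given in the sources used here, so reads at these overlaps are uncertain.

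**Figure D1:**
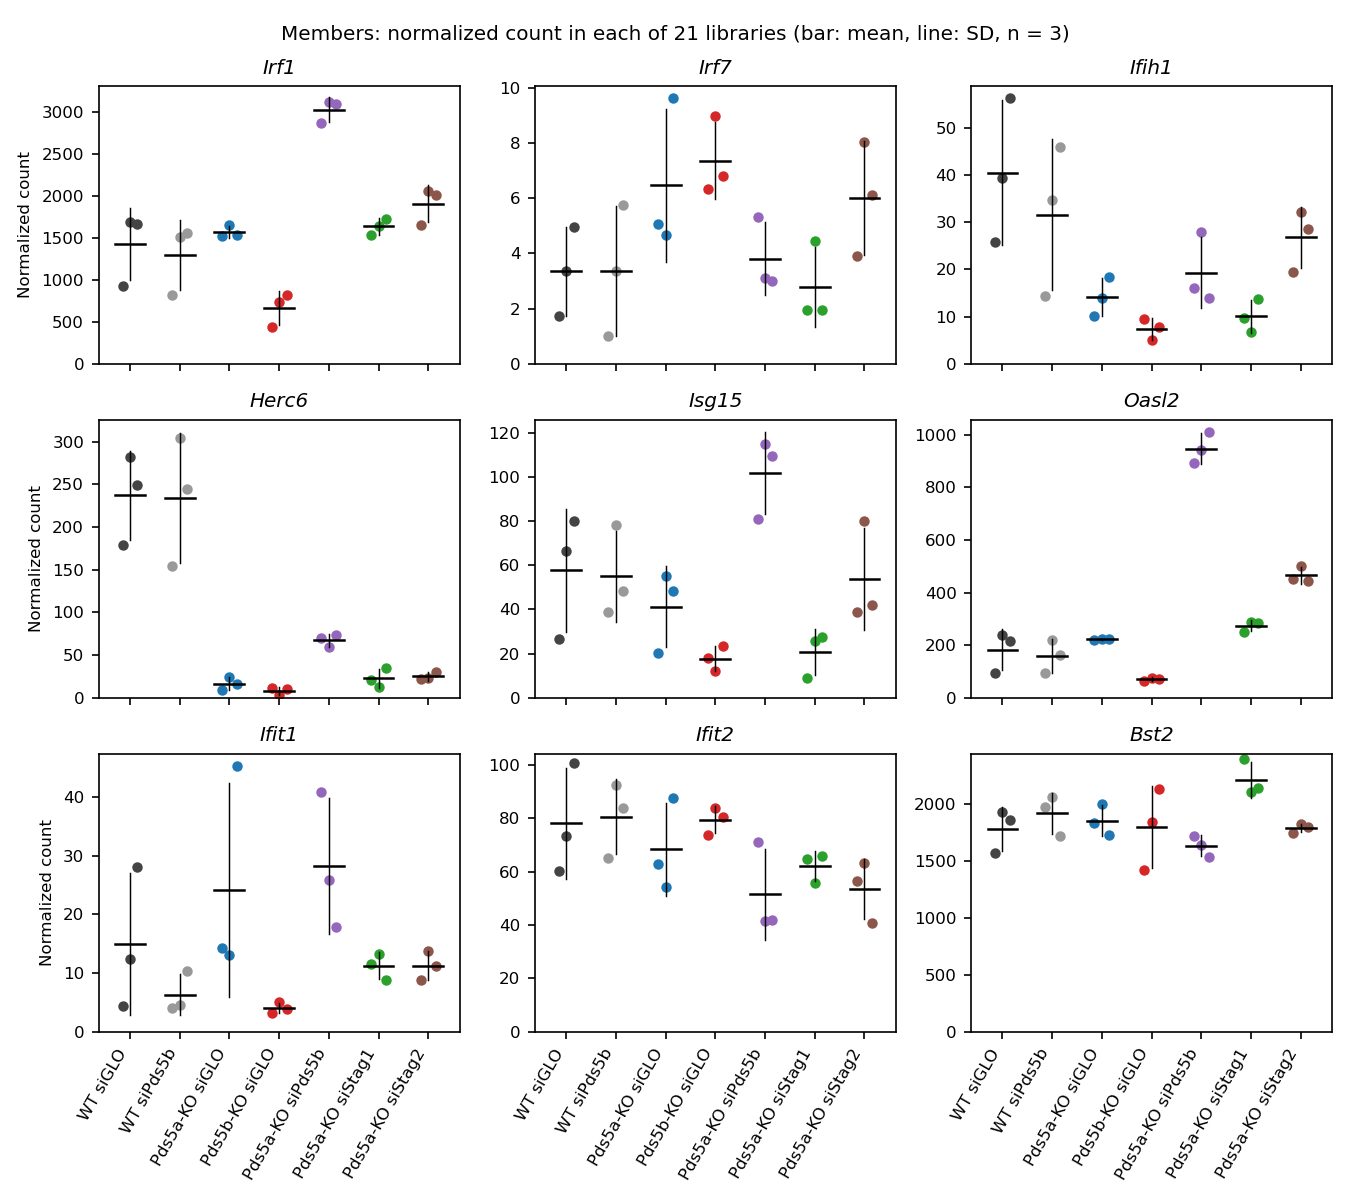
Normalized count (y axis, linear, from 0) of each of the 9 members in the 21 libraries, by condition, with the mean as a bar and the SD as a line (n = 3). *Herc6* is high in both WT conditions and below 75 in all 15 knockout libraries, while *Oasl2* and *Irf1* are highest in the dual-depleted cells.

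The members spanned a wide range in WT siGLO mESCs. Per kb of exon, *Bst2* was at 1976 ± 214 (SD, n = 3) normalized counts and *Irf1* at 358 ± 108, followed by *Isg15* at 76.4 ± 36.8, *Oasl2* at 28.6 ± 12.3, *Herc6* at 25.5 ± 5.66 and *Ifit2* at 19.9 ± 5.29. *Ifit1* at 5.61 ± 4.55, *Ifih1* at 4.96 ± 1.87 and *Irf7* at 0.887 ± 0.429 per kb were the lowest. The genes also differed in how far their level moved across the conditions. The highest condition mean was 29.3 times the lowest for *Herc6*, 13.5 times for *Oasl2*, 7.03 times for *Ifit1*, 5.75 times for *Isg15*, 5.46 times for *Ifih1* and 4.56 times for *Irf1*, but 1.57 times for *Ifit2* and 1.35 times for *Bst2*. Pds5b-KO siGLO had the lowest mean of *Herc6*, *Irf1*, *Isg15*, *Ifit1*, *Ifih1* and *Oasl2*, so these ratios are descriptions only. For *Herc6* the highest mean was that of WT siGLO. Its ratio is thus between the conditions that chose it, and nothing is read from its first place.

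*Herc6* was highest in the 2 WT conditions. Its normalized counts were 180, 283 and 249 in the 3 WT siGLO libraries (mean 237 ± 52.6) and 154, 305 and 245 in WT siPds5b (234 ± 75.9). They were 9.14, 24.3 and 16.4 in Pds5a-KO siGLO (16.6 ± 7.59) and 11.6, 2.99 and 9.71 in Pds5b-KO siGLO (8.1 ± 4.53). They were 70.1, 59.1 and 73.8 in dual-depleted (67.7 ± 7.64), 21.3, 12.2 and 34.4 in siStag1-treated (22.6 ± 11.2) and 21.5, 22.9 and 30.7 in siStag2-treated Pds5a-KO mESCs (25.0 ± 4.94). The libraries of the 2 WT conditions overlapped, all knockout libraries lay below them, and within the knockouts the dual-depleted libraries lay above those of the other 4 conditions, which overlapped from neighbour to neighbour in the order of means.

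*Oasl2* followed another order. Its normalized counts were 92.8, 238 and 216 in WT siGLO (182 ± 78.1), 93.7, 221 and 162 in WT siPds5b (159 ± 63.7) and 221, 225 and 222 in Pds5a-KO siGLO (223 ± 1.68). They were 62.3, 75.8 and 72.8 in Pds5b-KO siGLO (70.3 ± 7.09), 893, 941 and 1010 in dual-depleted cells (948 ± 58.5), 249, 288 and 283 under siStag1 (273 ± 21.2) and 450, 501 and 445 under siStag2 (465 ± 31.2). The dual-depleted, siStag2 and siStag1 libraries formed 3 separate steps, and Pds5b-KO siGLO lay below every other condition. Pds5a-KO siGLO overlapped WT siGLO and lay barely above WT siPds5b, with a lowest library at 221.4 against a highest at 221.0.

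*Irf1* showed the same ends of the order at a higher level. Its normalized counts were 930, 1688 and 1658 in WT siGLO (1425 ± 429), 814, 1512 and 1560 in WT siPds5b (1296 ± 418) and 1525, 1651 and 1538 in Pds5a-KO siGLO (1571 ± 69.2). They were 438, 738 and 813 in Pds5b-KO siGLO (663 ± 199) and 2859, 3118 and 3097 in dual-depleted cells (3025 ± 144), with means of 1635 ± 96.5 under siStag1 and 1907 ± 220 under siStag2. The dual-depleted libraries lay above and the Pds5b-KO siGLO libraries below the others, and the 5 conditions between them overlapped from neighbour to neighbour. *Irf7*, the factor that amplifies interferon production in other cells, had 1 to 10 reads per library and condition means between 2.78 and 7.37 normalized counts, with overlap between all neighbours in the order.

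Among the remaining members, *Isg15* was at 26.6, 66.5 and 80.2 in WT siGLO (57.8 ± 27.8), at 80.8, 115 and 110 in dual-depleted (102 ± 18.4) and at 17.9, 12 and 23.3 in Pds5b-KO siGLO mESCs (17.7 ± 5.67). Only the dual-depleted libraries stood apart from the next condition in its order. *Ifih1* was at 25.8, 39.4 and 56.2 in WT siGLO (40.5 ± 15.3), at 10.2, 14.0 and 18.3 in Pds5a-KO siGLO (14.2 ± 4.08) and at 9.5, 4.98 and 7.77 in Pds5b-KO siGLO (7.42 ± 2.28). Its libraries overlapped between all neighbours in the order, as did those of *Ifit1*, with means from 4.01 to 28.2, and of *Ifit2*, with means from 51.5 to 80.6. The means of *Bst2* lay between 1633 and 2212, with the siStag1-treated libraries above those of WT siPds5b, the next condition.

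The libraries numbered 1 tended to be low. Over the 8 tested members and 7 conditions, library 1 was the lowest of the 3 in 37 of 56 sets (66.1%), against 37.4% over all tested genes. Library 1 of WT siGLO held the lowest value of all 9 members among the 3 WT siGLO libraries. The part of this in the comparisons below was not tested beyond fits that left out each library in turn and fits with the replicate number as a block.

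Loss of PDS5A was examined in Pds5a-KO siGLO against WT siGLO mESCs, which asks whether PDS5A alone is needed for the expression of these genes. *Herc6* fell 14.0-fold (log2 fold change -3.81 ± 0.34 SE, edgeR adjusted p = 2.88e-08), with all 3 knockout libraries below all 3 WT libraries, and *Ifih1*, the sensor gene, fell 2.84-fold (-1.51 ± 0.40, adjusted p = 0.00651), also without overlap. The other 6 members did not pass the threshold of an adjusted p under 0.01, and their log2 fold changes were 0.14 ± 0.25 for *Irf1*, -0.47 ± 0.42 for *Isg15*, 0.67 ± 0.51 for *Ifit1*, -0.20 ± 0.24 for *Ifit2*, 0.05 ± 0.11 for *Bst2* and 0.30 ± 0.26 for *Oasl2*. Thus 2 of 8 tested members changed, both downward, where 17.8% of all 14963 tested genes changed and 8.12% fell. Libraries without overlap were found for 40.8% of all genes. In bulk RNA, fewer cells with a transcript and less of it per cell cannot be told apart. The call of *Herc6* held without any 1 library (adjusted p at most 1.05e-06), whereas that of *Ifih1* was lost without WT siGLO library 2 or 3 or any of the 3 Pds5a-KO siGLO libraries, with adjusted p between 0.0101 and 0.0585. The WT siGLO libraries took part in the choice of *Herc6*, so its p-value here is not independent of that choice. Summed mESC markers were 112008 to 126599 in Pds5a-KO siGLO against 140363 to 151010 in WT siGLO and blood markers 435 to 536 against 282 to 404, and their part in these changes was not tested. Within the mESC sum *Klf4* was at 1652 against 3366 and *Esrrb* at 5971 against 10697, while *Utf1* was at 5738 against 4842.

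**Figure D2:**
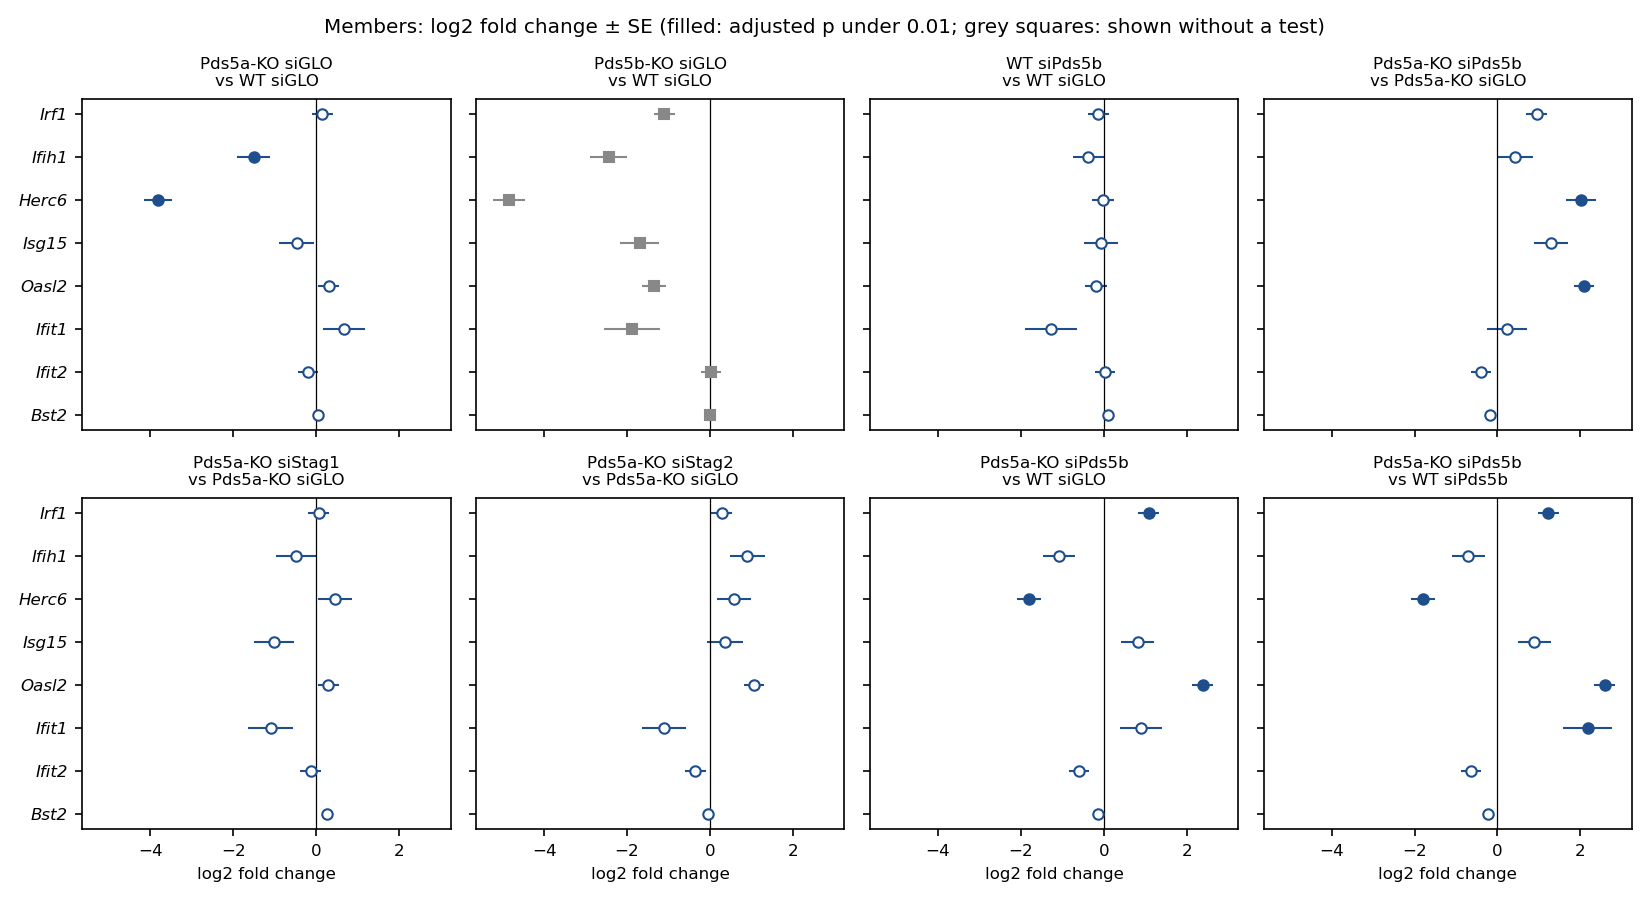
Log2 fold change ± SE (x axis) of the 8 tested members in 8 comparisons. Filled circles passed an edgeR adjusted p under 0.01, open circles did not, and grey squares are the comparison that chose *Herc6*, shown without a test. *Herc6* lies at -3.81 after loss of PDS5A and at -1.80 after dual depletion against WT siGLO, where *Oasl2* lies at 2.39.

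The other genes of the pathway moved in both directions after loss of PDS5A. Of 145 listed ligands, sensors, receptors, signalling factors, inhibitors, interferon-stimulated and antigen presentation genes, 109 were tested, 10 rose and 8 fell, a share of 16.5% against 17.8% over all genes. None of 21 interferon genes could be tested, 13 were at 0 in all 21 libraries, and no library had more than 3 reads of any of them. Among 15 sensors and adaptors, *Mb21d1*, which encodes the DNA sensor cGAS, fell (-1.03 ± 0.27, adjusted p = 0.00647), and so did *Ddx58*, the gene of the RNA sensor RIG-I (-0.43 ± 0.11, adjusted p = 0.00608). Of 12 receptor and JAK-STAT genes 1 fell and none rose, and the inhibitor gene *Pias1* rose (0.27 ± 0.07, adjusted p = 0.00663) as the only one of 12 inhibitors.

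Of 45 other interferon-stimulated genes, 8 rose and 5 fell. *Gbp7*, which encodes a guanylate-binding protein, went from 13.5 ± 2.95 to 129 ± 40.3 normalized counts (log2 fold change 3.23 ± 0.32, adjusted p = 9.23e-08), and *Ddx60* (2.26) and *Nmi* (1.70) rose as well. *Samd9l*, the gene of an antiviral factor, went from 116 ± 23.7 to 21.4 ± 3.5 (-2.43 ± 0.30, adjusted p = 1.88e-06), and *Slfn2* (-2.53), *Xaf1* (-2.28) and *Trim30a* (-2.23) fell. None of 6 other interferon regulatory factors, 3 enzymes of ISG15 conjugation or 13 antigen presentation genes passed the test. Of the 4 other HERC genes, *Herc3* rose 1.3-fold (0.38 ± 0.08, adjusted p = 0.00129). Of 8 tested NF-kB targets, *Tnfaip3* (1.09 ± 0.25, adjusted p = 0.00208) and *Nfkb2* (0.72 ± 0.13, adjusted p = 0.000255) rose.

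In Pds5b-KO siGLO against WT siGLO, the comparison that had chosen *Herc6*, the log2 differences were -4.85 ± 0.38 for *Herc6*, -2.44 ± 0.45 for *Ifih1*, -1.88 ± 0.67 for *Ifit1*, -1.69 ± 0.47 for *Isg15*, -1.36 ± 0.29 for *Oasl2* and -1.10 ± 0.26 for *Irf1*, with no overlap between libraries except for *Ifit1*. The few reads of *Irf7* were higher in all 3 knockout libraries. *Ifit2* (0.02 ± 0.24) and *Bst2* (0.01 ± 0.11) lay at the level of WT siGLO. Of the 8 members 5 lay beyond the threshold used for the other comparisons, beside 18.2% of all tested genes, and 45.3% of all genes had libraries without overlap. *Isg15* was among the 5 but close to the threshold, and *Ifit1* was not among them. Nothing is read from these counts, since these are the values that chose *Herc6*. Summed counts of 10 fibroblast or feeder markers were 695 to 783 in Pds5b-KO siGLO and 1343 to 1753 in WT siGLO, those of the mESC markers 107829 to 123354 and 140363 to 151010, those of the endothelial markers 1062 to 1093 and 1534 to 1754, and their part in these differences was not tested. *Pecam1* made up most of the endothelial sum in every condition, with means of 893 in Pds5b-KO siGLO and 1395 in WT siGLO, while *Cdh5* was at 6.74 and 4.32. Of the fibroblast or feeder markers, *Col1a1* was at 161 and 536 and *Col1a2* at 92.4 and 514 in these conditions. *Pdgfra* was at 253 and 152 and *Twist2* at 12.4 and 7.6, so the sum does not stand for each marker. Of the mESC markers, *Klf4* was at 1830.5 and 3366 and *Utf1* at 8285 and 4842.

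The 109 other pathway genes, described in the same way, had a median log2 difference of -0.21 in Pds5b-KO siGLO against WT siGLO, beside -0.00 over all tested genes. It was -0.40 for 45 other interferon-stimulated genes, -0.12 for 15 sensors and adaptors and -0.61 for 13 antigen presentation genes. Among interferon-stimulated genes, *Xaf1* was at 12.9 ± 8.08 against 227 ± 17 in WT siGLO (log2 difference -4.11 ± 0.33), *Lgals3bp* at 3.97 ± 2.96 against 31.2 ± 12, and *Gbp2* at 314 ± 96.9 against 1984 ± 625. *Zbp1*, the gene of a nucleic acid sensor, was at 12.1 ± 1.74 against 95.5 ± 36.3, and *Psmb8*, an immunoproteasome subunit gene, at 40.8 ± 7.27 against 296 ± 118. *Uba7*, which encodes the enzyme that activates ISG15, was at 3.68 ± 0.447 against 15.6 ± 0.161. In the other direction lay *Gbp7* (1.72) and *Nlrc5* (2.18 ± 0.47), which encodes a regulator of class I antigen presentation genes.

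Set directly against Pds5b-KO siGLO, Pds5a-KO siGLO mESCs had more *Ifit1* (log2 difference 2.55 ± 0.63), *Oasl2* (1.66 ± 0.29), *Irf1* (1.24 ± 0.26), *Isg15* (1.22 ± 0.49), *Herc6* (1.04 ± 0.50) and *Ifih1* (0.93 ± 0.50), with overlapping libraries for *Isg15* and *Herc6*. *Ifit2* (-0.22 ± 0.24) and *Bst2* (0.04 ± 0.11) were close to 0. Beyond the threshold lay 3 members, beside 19.2% of all genes, and 41.1% of all genes had libraries without overlap, and nothing is read from these counts either. The 109 pathway genes had a median log2 difference of 0.35, beside 0.02 over all genes, among them *Zbp1* with 110 ± 9.59 against 12.1 ± 1.74, *Oas1a* with 113 ± 22.0 against 25.4 ± 3.25 and *Tapbp* with 1132 ± 207 against 489 ± 65.8.

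The chromosomes around the members were level with one exception. The 698 other tested genes on the chromosome of *Herc6* had a median log2 fold change of -0.01 in Pds5a-KO siGLO and -0.02 in Pds5b-KO siGLO against WT siGLO. The 776 other tested genes on the chromosome of *Bst2* had medians of -0.19 and 0.30, against 0.05 ± 0.11 and 0.01 ± 0.11 for *Bst2* itself. The 4 tested neighbours of *Herc6* were *Ppm1k*, whose start lies at -45.5 kb from that of *Herc6*, and *Pyurf*, *Lancl2* and *Vopp1*, whose starts lie 111, 122 and 244 kb after it. In Pds5a-KO siGLO against WT siGLO their log2 fold changes were -0.10 ± 0.17, -0.18 ± 0.13, -0.12 ± 0.10 and -0.53 ± 0.24, and none passed the test. After dual depletion against WT siGLO they were -0.04 ± 0.17, 0.15 ± 0.13, 0.07 ± 0.10 and 0.15 ± 0.23, and none passed either. The 4 vomeronasal receptor genes beyond them, *Vmn1r18*, *Vmn1r19*, *Vmn1r20* and *Vmn1r21*, had too few reads for the test.

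**Figure D3:**
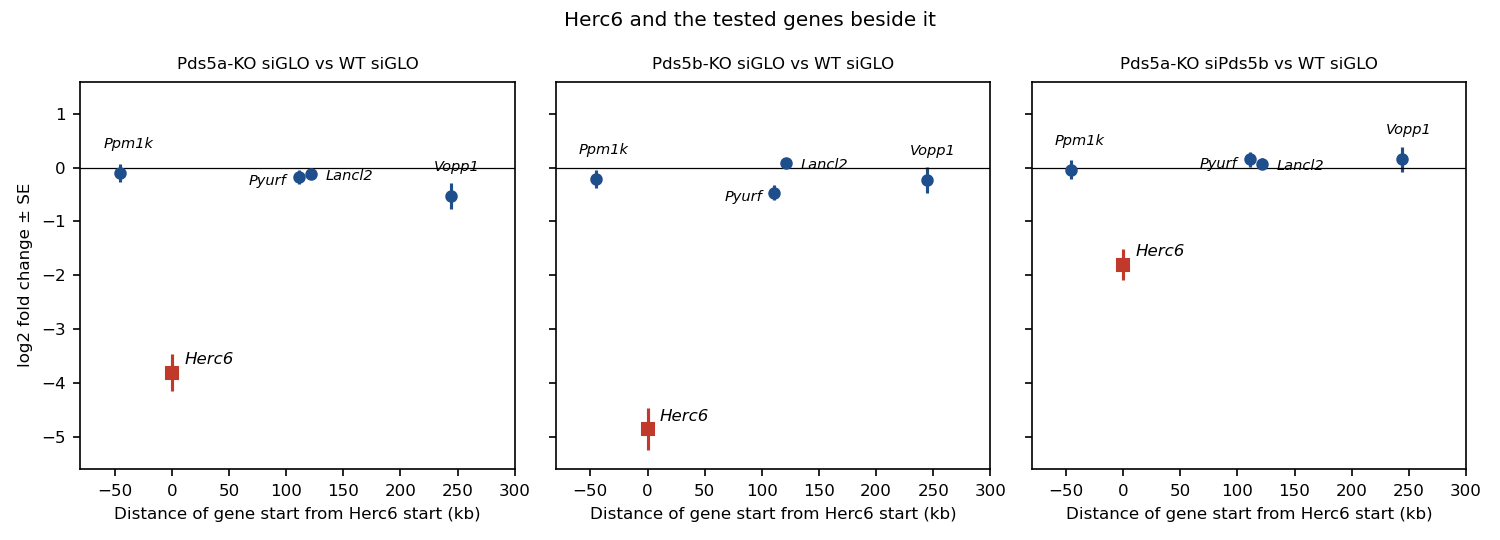
Log2 fold change ± SE (y axis) of *Herc6* and its 4 tested neighbours against the distance of their start from that of *Herc6* (x axis, kb) in 3 comparisons with WT siGLO. *Herc6* lies at -3.81, -4.85 and -1.80, while the neighbours lie between -0.53 and 0.15.

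Knockdown of *Pds5b* in WT mESCs asks whether acute loss of PDS5B acts like the stable knockout. No member passed the test in WT siPds5b against WT siGLO. *Herc6* differed by -0.02 ± 0.26 on the log2 scale, *Irf1* by -0.14 ± 0.25, *Isg15* by -0.07 ± 0.42, *Oasl2* by -0.19 ± 0.27, *Ifih1* by -0.37 ± 0.37 and *Ifit1* by -1.27 ± 0.63, each with an edgeR adjusted p of 0.9998 and with overlapping libraries. None of the 8 members had an unadjusted p under 0.05 and none passed in DESeq2. In edgeR 0.00668% of all genes passed, which was *Pds5b* itself, 631 genes had an unadjusted p under 0.05, and 11.2% had libraries without overlap. None of the 109 pathway genes passed, and 6 had an unadjusted p under 0.05. Summed fibroblast or feeder markers were 1971 to 2468 in WT siPds5b against 1343 to 1753 in WT siGLO, and their part was not tested. Within this sum *Col1a1* was at 825 against 536 and *Col1a2* at 813 against 514, while *Pdgfrb* was at 91.2 against 110. The knockdown and the knockout are not matched, since *Pds5b* was at 776 ± 79.7 normalized counts after knockdown and at 276 ± 37.2 in the knockout.

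The same siRNA was then examined in Pds5a-KO mESCs, where both PDS5 proteins are depleted. Against Pds5a-KO siGLO, *Oasl2* rose 4.26-fold (log2 fold change 2.09 ± 0.25, edgeR adjusted p = 1.39e-05) and *Herc6* rose 4.02-fold (2.01 ± 0.36, adjusted p = 0.000518), in each case with all dual-depleted libraries above all controls. *Irf1* differed by 0.94 ± 0.25 (adjusted p = 0.0185) and *Isg15* by 1.29 ± 0.41 (adjusted p = 0.0357) without overlap of libraries, and both passed with the replicate number as a block (adjusted p = 0.000693 and 0.000875). Over all alternatives the adjusted p ran from 7.28e-05 to 0.0576 for *Irf1* and from 0.000875 to 0.136 for *Isg15*. *Ifit1* (0.23 ± 0.48), *Ifit2* (-0.40 ± 0.25), *Ifih1* (0.43 ± 0.44) and *Bst2* (-0.18 ± 0.11) did not pass in either fit. In all, 2 of 8 members rose, where 7.59% of all genes changed and 4.0% rose, and 31.2% had libraries without overlap. With the block 4 of 8 rose, and the share of all genes called in that fit is not given here. The calls of *Oasl2* and *Herc6* held without any 1 library. Summed counts of the mESC markers were 96159 to 106793 in dual-depleted and 112008 to 126599 in Pds5a-KO siGLO mESCs, and their part in these changes was not tested. The sum hides larger and opposite differences of single markers. *Klf4* was at 616 and 1652 and *Esrrb* at 2211 and 5971 in these conditions, while *Tdgf1* was at 34412 and 29945.

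Of the 109 other pathway genes tested in this comparison, 20 rose and 2 fell, a share of 20.2% called against 7.59% of all genes, with a median log2 fold change of 0.27 against 0.00 over all genes. When 1 library was left out, 14 to 17 rose, beside 689 to 946 calls over all genes in place of 1136. With the block 34 rose and 4 fell, again without the share of all genes in that fit. Of the 2 that fell without the block, 1 remained when Pds5a-KO siGLO library 1 or 3 or dual-depleted library 1 or 2 was left out. Among 45 other interferon-stimulated genes, 14 rose, among them *Trim30a* (4.25 ± 2.99 to 40.3 ± 8.36 normalized counts, log2 fold change 3.22 ± 0.53, adjusted p = 0.000175), *Rtp4* (2.54 ± 0.59, adjusted p = 0.00454) and *Irgm1*, an immunity-related GTPase gene (338.5 ± 53.8 to 1244 ± 120, 1.87 ± 0.31, adjusted p = 0.000794), and *Pml* fell (-0.69 ± 0.11, adjusted p = 0.000229). Of the sensors, *Tlr3* (1.65 ± 0.31, adjusted p = 0.000616) and *Zbp1* (1.37 ± 0.23, adjusted p = 0.000229) rose and *Trim25* fell (-0.45 ± 0.11, adjusted p = 0.00517). *Ifngr1*, the ligand-binding chain of the interferon gamma receptor (0.57 ± 0.13, adjusted p = 0.00298), was among 2 of 12 receptor and JAK-STAT genes that rose, and the feedback inhibitor gene *Socs1* rose (0.79 ± 0.16, adjusted p = 0.00118). Of 13 antigen presentation genes *Cd74* rose (1.13 ± 0.29, adjusted p = 0.00876), and 9 rose with the block. The ISG15 conjugation genes, the other interferon regulatory factors, the HERC genes and the NF-kB targets held no call.

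**Figure D4:**
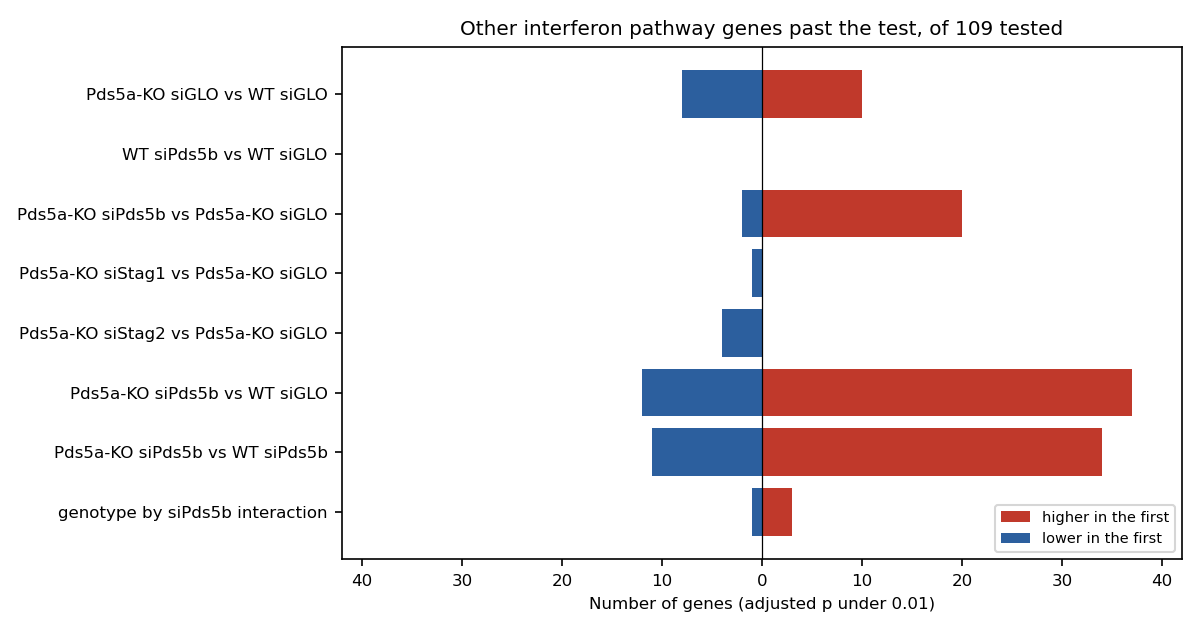
Number of the 109 tested pathway genes other than the members (x axis, counted from 0 to either side) past an edgeR adjusted p under 0.01 in 8 comparisons, higher to the right and lower to the left. Genes higher after dual depletion against WT siGLO (37) and against WT siPds5b (34) are the longest bars, and WT siPds5b against WT siGLO has none.

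Whether the siRNA acted differently in the 2 genotypes was tested as an interaction, the effect of siPds5b in Pds5a-KO minus that in WT mESCs. The difference was 2.28 ± 0.36 on the log2 scale for *Oasl2* (edgeR adjusted p = 0.00122), and this was the 1 member of 8 past the threshold, where 1.48% of all genes were. For *Herc6* it was 2.02 ± 0.45 (adjusted p = 0.0113, with a range of 0.000627 to 0.0365 over all alternatives), for *Irf1* 1.08 ± 0.36 (adjusted p = 0.114) and for *Isg15* 1.36 ± 0.58 (adjusted p = 0.222). *Herc6* passed without WT siGLO library 1, WT siPds5b library 2 or Pds5a-KO siGLO library 2, with adjusted p between 0.00637 and 0.00887, and *Oasl2* did not pass when only the 4 conditions compared were fitted (adjusted p = 0.025).

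Dual depletion set against WT siGLO combines both losses. *Oasl2* rose 5.24-fold (log2 fold change 2.39 ± 0.25, edgeR adjusted p = 5.09e-07) and *Irf1* rose 2.12-fold (1.09 ± 0.25, adjusted p = 0.00243), while *Herc6* fell 3.49-fold (-1.80 ± 0.29, adjusted p = 2.51e-05), each without overlap between the libraries. *Isg15* differed by 0.82 ± 0.40, *Ifit1* by 0.90 ± 0.50, *Ifit2* by -0.60 ± 0.24, *Ifih1* by -1.08 ± 0.39 and *Bst2* by -0.13 ± 0.11, with adjusted p from 0.027 to 0.36. So 3 of 8 members changed, where 32.0% of all genes did and 54.3% had libraries without overlap. *Irf1* did not pass without WT siGLO library 1 (adjusted p = 0.0104), and *Ifit2* passed without dual-depleted library 1 (-0.92 ± 0.27, adjusted p = 0.00713). Here too the p-value of *Herc6* is not independent of its choice, which used the WT siGLO libraries. Summed mESC markers were 96159 to 106793 against 140363 to 151010 in WT siGLO, blood markers 431 to 456.5 against 282 to 404 and 5 endothelial markers 1437 to 1513 against 1534 to 1754, and their part was not tested. Within the mESC sum *Klf4* was at 616 against 3366 and *Esrrb* at 2211 against 10697, while *Utf1* was at 5581 against 4842.

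The knockout was also compared under siPds5b, in dual-depleted against WT siPds5b mESCs. This comparison shares no library with that of both genotypes under siGLO, nor with the one that chose *Herc6*. *Oasl2* rose by 2.58 ± 0.26 (edgeR adjusted p = 3.02e-07), *Ifit1* by 2.17 ± 0.59 (adjusted p = 0.00452) and *Irf1* by 1.23 ± 0.25 (adjusted p = 0.00112) on the log2 scale, and *Herc6* fell by 1.79 (SE 0.29, adjusted p = 3.24e-05). Thus 4 of 8 members changed, where 30.6% of all genes did and 53.4% had libraries without overlap. *Ifit1* went from 4.08, 4.46 and 10.3 to 40.8, 25.9 and 17.9 normalized counts, and its call was lost without WT siPds5b library 1 or 2 or dual-depleted library 1 (adjusted p from 0.0241 to 0.0294). *Ifit2* differed by -0.63 ± 0.25 and passed without dual-depleted library 1 (adjusted p = 0.0059). Against WT siPds5b, summed mESC markers were 96159 to 106793 and 139221 to 154461, fibroblast or feeder markers 849.7 to 1689 and 1971 to 2468, and blood markers 431 to 456.5 and 265 to 344, and their part was not tested. The single markers of a sum moved differently. *Klf4* was at 616 and 2891 and *Utf1* at 5581 and 4846, while *Col1a2* was at 323 and 813 and *Twist2* at 28.1 and 12.7. Set side by side, the difference of the Pds5a-KO from the WT genotype was -3.81 under siGLO and -1.79 under siPds5b for *Herc6*, and 0.30 and 2.58 for *Oasl2*.

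Among the pathway genes, 37 were higher and 12 lower after dual depletion than in WT siGLO, 45% of the 109 tested against 32.0% of all genes. When 1 library was left out, 25 to 34 were higher and 9 to 11 lower. The calls over all genes were then 3836 to 4505 in place of 4787. Against WT siPds5b 34 were higher and 11 lower, 41.3% beside 30.6% of all genes, with 22 higher without WT siPds5b library 1 or dual-depleted library 3. Against WT siGLO, 20 of 45 other interferon-stimulated genes rose and 4 fell, led by *Gbp7* (13.5 ± 2.95 to 293 ± 49.6 normalized counts, log2 fold change 4.40 ± 0.31, adjusted p = 1.16e-10), *Ddx60*, which encodes a helicase (17.5 ± 7.11 to 232.5 ± 33.2, 3.72 ± 0.32, adjusted p = 3.43e-09), and *Nmi*, the gene of a partner of STAT proteins (24.7 ± 2.03 to 183 ± 19.6, 2.89 ± 0.23, adjusted p = 4.55e-10). *Samd9l* (-2.58) and *Xaf1* (-1.31) were among the 4 that fell. Of 15 sensors and adaptors 3 rose and 4 fell, with *Zbp1* at 1.58 ± 0.23 (adjusted p = 8.59e-06), *Tlr3* at 1.39 ± 0.30 (adjusted p = 0.000561) and *Mb21d1* at -1.15 ± 0.28 (adjusted p = 0.00166).

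The signalling genes moved in both directions in this comparison with WT siGLO, where 32.0% of all genes were called. Of 12 receptor and JAK-STAT genes 3 rose and 2 fell, with *Jak2* at 0.88 ± 0.21 (adjusted p = 0.00259), *Ifngr1* at 0.64 ± 0.13 (adjusted p = 0.000248) and *Irf9*, the DNA-binding part of the ISRE factor, at -0.94 ± 0.14 (adjusted p = 1.2e-05). Of 12 inhibitors 3 rose and 2 fell, among them *Socs1* (1.26 ± 0.16, adjusted p = 1.13e-06) and *Ptpn6* (-0.85 ± 0.13, adjusted p = 1.18e-05). *Ube2l6*, the gene of the conjugating enzyme that hands ISG15 to HERC6, rose 2.4-fold (1.26 ± 0.32, adjusted p = 0.00253), and the other 2 enzymes of that list did not pass. Of 13 antigen presentation genes 6 rose and none fell, with *Nlrc5* at 1.71 ± 0.49 (adjusted p = 0.00616), *Tap1* at 0.90 ± 0.20 (adjusted p = 0.00103) and *Psmb9* at 0.86 ± 0.25 (adjusted p = 0.00657). Of 8 NF-kB targets 5 rose, among them *Cxcl1* (3.47 ± 0.59, adjusted p = 4.59e-05), *Ccl2* (2.27 ± 0.65, adjusted p = 0.00628) and *Tnfaip3* (1.5 ± 0.25, adjusted p = 3.8e-05). None of 6 other interferon regulatory factors passed, and of the HERC genes *Herc3* rose (0.51 ± 0.08, adjusted p = 2.54e-05).

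**Figure D5:**
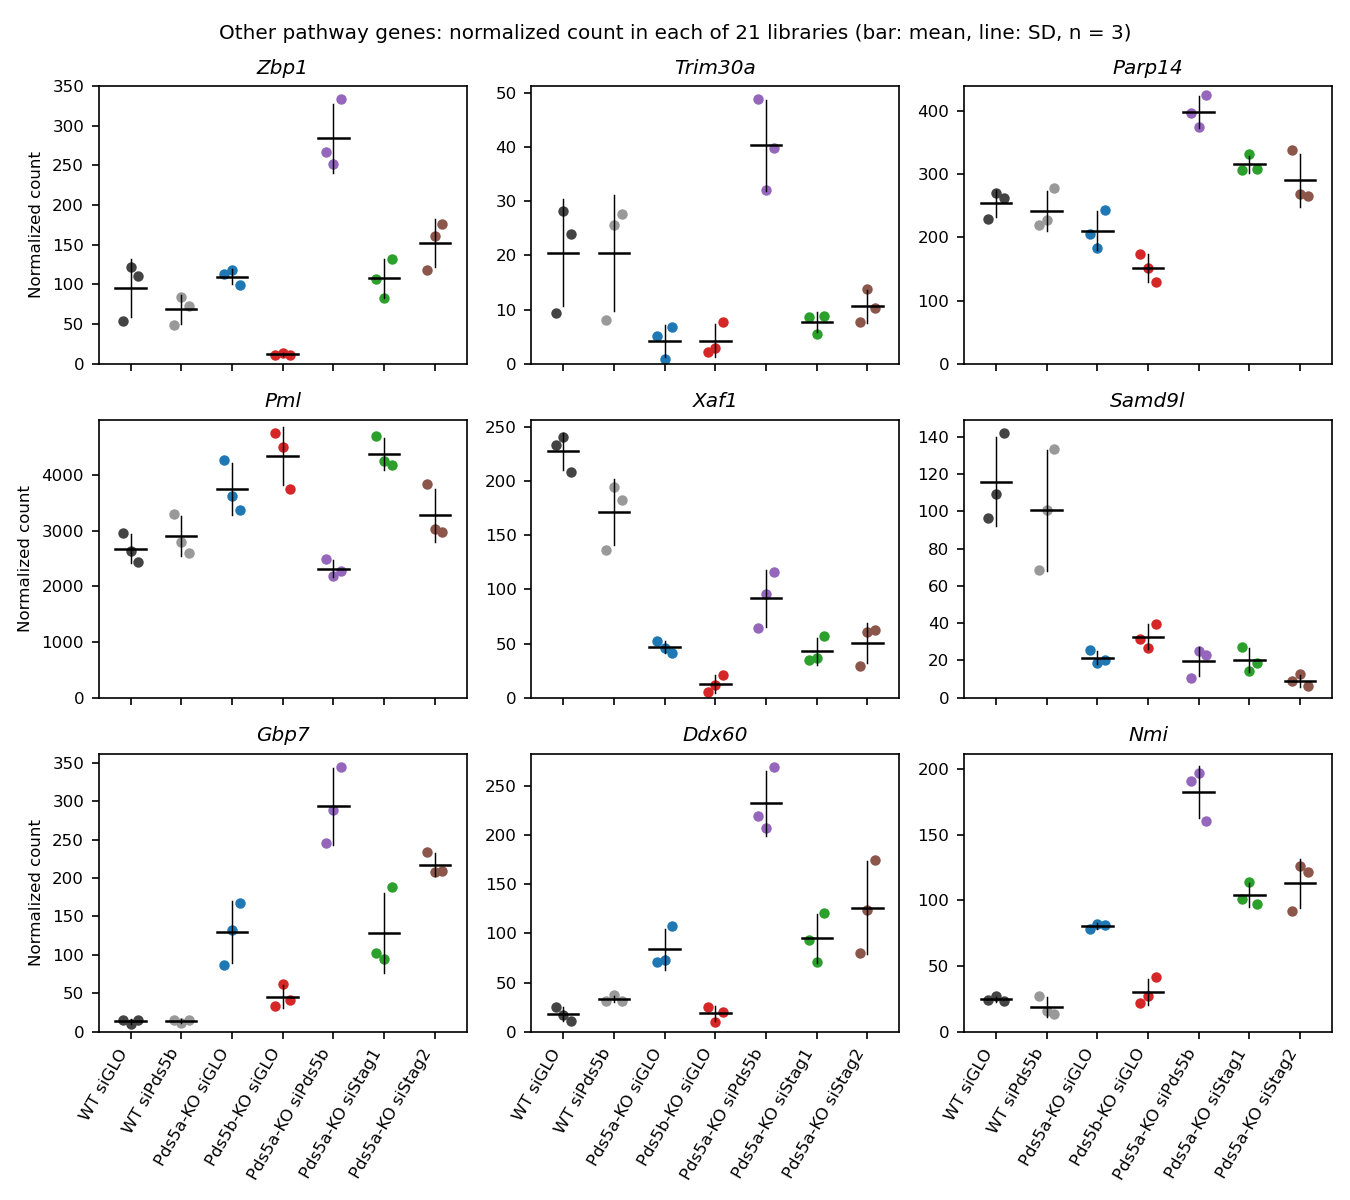
Normalized count (y axis, linear, from 0) of 9 pathway genes in the 21 libraries by condition, with the mean as a bar and the SD as a line (n = 3). *Xaf1* and *Samd9l* are highest in the WT conditions, as *Herc6* is, while *Zbp1*, *Gbp7*, *Ddx60* and *Nmi* are highest in the dual-depleted cells, as *Oasl2* is.

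Levels in 3 pathway genes are given beside these orders as a description. *Xaf1*, which encodes a proapoptotic factor, was at 227 ± 17 in WT siGLO, 171 ± 30.5 in WT siPds5b, 46.7 ± 5.74 in Pds5a-KO siGLO, 12.9 ± 8.08 in Pds5b-KO siGLO and 91.6 ± 26.0 in dual-depleted mESCs. *Zbp1* was at 95.5 ± 36.3, 68.7 ± 17.9, 110 ± 9.59, 12.1 ± 1.74 and 284 ± 43.8 in these conditions. *Samd9l* was at 116 ± 23.7, 101 ± 32.5, 21.4 ± 3.5, 32.8 ± 6.51 and 19.5 ± 7.71, so it had the low knockout levels of *Herc6* without a higher level after dual depletion.

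Knockdown of a STAG subunit in Pds5a-KO mESCs asks whether these genes depend on cohesin of either kind once PDS5A is gone, and both comparisons share the Pds5a-KO siGLO controls with that of siPds5b. Under siStag1 no member passed the test in edgeR, with or without the replicate number as a block, or in DESeq2. Of 8 members 2 had an unadjusted p under 0.05 in edgeR without the block, *Isg15* (-1.01 ± 0.48) and *Bst2* (0.26 ± 0.11). Over all genes 0.0936% passed in edgeR, 10.7% had an unadjusted p under 0.05 and 15.7% had libraries without overlap. *Herc6* differed by 0.45 ± 0.41 and *Oasl2* by 0.30 ± 0.25. Of the pathway, *Phf11d* fell (-0.74 ± 0.12, adjusted p = 0.0038), a call that was lost without any 1 library other than siStag1 library 3. It also passed with the block (edgeR adjusted p = 0.00268). Summed blood markers were 243 to 292 against 435 to 536 in Pds5a-KO siGLO, and their part was not tested.

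Under siStag2 the member with the lowest adjusted p was *Oasl2*, 2.09 times higher with all 3 libraries above all controls (log2 fold change 1.06 ± 0.25, edgeR adjusted p = 0.0145). It passed with the replicate number as a block (adjusted p = 0.00157) and in DESeq2 (adjusted p = 0.000365), with a range over all alternatives of 0.000363 to 0.0567. No other member passed in edgeR or DESeq2, with *Ifih1* at 0.90 ± 0.42 (adjusted p = 0.184), *Herc6* at 0.58 ± 0.41, *Irf1* at 0.28 ± 0.25 and *Ifit1* at -1.11 ± 0.54, and 2 members had an unadjusted p under 0.05. Over all genes 2.24% passed in edgeR, 25.3% had an unadjusted p under 0.05 and 26.4% had libraries without overlap. Of the pathway genes 4 fell and none rose, *Ifitm1* (-1.0 ± 0.18, adjusted p = 0.00381), *Oas1g* (-0.91 ± 0.20, adjusted p = 0.00661), *Phf11d* (-0.71 ± 0.12, adjusted p = 0.0012) and *Ifitm2* (-0.62), and 4 rose and 4 fell with the block. The count was 1 without siStag2 library 1 and 2 without siStag2 library 3 or Pds5a-KO siGLO library 1 or 2. Summed mESC markers were 84110 to 99075 under siStag2 against 112008 to 126599 in Pds5a-KO siGLO, blood markers 351 to 395 against 435 to 536 and endothelial markers 1003 to 1233 against 1445 to 1575, and their part was not tested. Within the mESC sum *Esrrb* was at 3614 against 5971 and *Zfp42* at 4125 against 7413, while *Utf1* was at 5930 against 5738.

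Genes were then ranked by the likeness of their pattern to that of *Herc6* and of *Isg15*. Over the 7 condition means, and among 12028 genes with a mean log2 CPM (counts scaled to library size) of at least 1, the 5 highest Pearson correlations with *Herc6* included those of *Fgf5* (0.984), *Arl6ip6* (0.983), *Arl16* (0.976) and *Chst1* (0.973), while *Irf1* had 0.273 and *Oasl2* 0.129. *Fgf5*, the gene of a growth factor that rises when mESCs leave the naive state, was at 235.6 ± 97.4 normalized counts in WT siGLO, 27 ± 10.1 in Pds5a-KO siGLO, 20.7 ± 9.04 in Pds5b-KO siGLO and 75.7 ± 24.6 in dual-depleted mESCs. Those with *Isg15* were *Sgpl1* (0.988), *Tapbpl* (0.963), *Pcmtd2* (0.959), *Serpinb9b* (0.959) and *Gnb4* (0.956). Over the 21 single libraries 1 gene of 5 was shared with each list, *Chst1* for *Herc6* and *Serpinb9b* for *Isg15*, and *Xaf1* (0.903) was then among the 5 closest to *Herc6*. Between members, *Irf1* and *Oasl2* had a correlation of 0.971 over the condition means and *Herc6* and *Ifih1* one of 0.852. *Irf1* and *Ifit1* had 0.867, while *Ifit2* had -0.937 with *Oasl2* and -0.843 with *Irf1*. Over the deviations of the 21 libraries from their condition means, *Ifit2* had the other sign, with 0.445 for *Oasl2* and 0.357 for *Irf1*. The other pairs named stayed positive there, with 0.849 for *Irf1* and *Oasl2*, 0.628 for *Herc6* and *Ifih1* and 0.463 for *Irf1* and *Ifit1*. *Ifit2* thus ran against *Oasl2* and *Irf1* in the condition means only. These are descriptions over 7 or 21 points, with no test.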

How the data were processed

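RNA was measured in 21 poly-A libraries of mESCs, 3 for each of 7 conditions given by the labels. The authors sequenced them as paired reads, aligned them with STAR to mm10 and deposited raw counts per gene, 1 table per library, and their own tests used DESeq2. The counting tool, its annotation and its use of strand are not given in the sources used here. From these counts, 14963 of 23412 genes passed edgeR's expression filter, and 1 quasi-likelihood model of all 21 libraries (edgeR 4.0.16, R 4.3.3, TMM factors 0.975 to 1.02) gave log2 fold changes, SEs and Benjamini-Hochberg adjusted p-values, with calls at an adjusted p under 0.01, the threshold of the study. Normalized counts are counts scaled to the mean effective library size of 19816922, and per kb they were divided by exon length. Depth was 17311090 to 23989198 counts per library, and intervals from it cover counting error only. The fit was tested on simulated data.

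The members and gene lists were chosen with earlier results of these data known. The genes named were the 9 members, up to 3 called genes with the largest absolute log2 fold change per pathway list and comparison, up to 4 genes on each side of *Herc6*, the 5 genes most correlated with *Herc6* and with *Isg15*, and the 4 targeted genes. *Ddx60*, *Nmi*, *Xaf1*, *Trim30a*, *Samd9l*, *Gbp7*, *Pml* and *Ifitm2* where outside the largest 3 were named after their values were seen. The values of 2 genes that this rule names are not reported here.

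Libraries of the same number deviated together, with a median correlation of 0.176 over 63 same-number pairs and -0.0895 over 126 others (12029 genes), and 16 of 21 libraries were closest to their own number. All pairs were over 0.1 in 4 comparisons, that of siPds5b in WT and those of siPds5b, siStag1 and siStag2 in Pds5a-KO mESCs, so a fit with the replicate number as a block is given beside results of these. Other alternatives were DESeq2 1.42.0, other scalings, other filters, a fit to the conditions compared only, and leaving out each library. Exon positions came from the GRCm38 annotation, which held 98.3% of the genes, and promoter sequences from RefSeq (GRCm38.p6).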

Additional observations from a re-analysis of the deposited data

Results flagged for a closer look

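The effect of siPds5b differed between the Pds5a-KO and WT genotypes by the test of the interaction in 5 genes named here. For *Oasl2* the difference was 2.28 ± 0.36 on the log2 scale (edgeR adjusted p = 0.00122), from an effect of 2.09 ± 0.25 in Pds5a-KO and -0.19 ± 0.27 in WT mESCs. For the sensor gene *Zbp1* it was 1.84 ± 0.34 (adjusted p = 0.00248), from 1.37 ± 0.23 and -0.47 ± 0.25. *Trim30a* differed by 3.22 ± 0.72 (adjusted p = 0.00995) at few reads per library, and *Parp14* by 0.99 ± 0.19 (adjusted p = 0.00287), from 0.92 ± 0.13 and -0.07 ± 0.14. *Pml* differed in the other direction by -0.81 ± 0.16 (adjusted p = 0.00499), from -0.69 ± 0.11 in Pds5a-KO and 0.12 ± 0.11 in WT mESCs. In all, 3 pathway genes were higher and 1 lower by this test, 3.67% of the 109 tested against 1.48% of all genes. Of these pathway genes 11 were higher without WT siGLO library 1, and none was past the threshold without WT siGLO library 2 or 3. Over all genes the calls ran from 121 to 232 when 1 library was left out, in place of 222.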

How the results depend on the processing

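Of 1043 log2 fold changes of members recomputed under the alternatives, 993 kept their direction and side of the threshold, 31 were no longer past it, 19 were newly past it and 0 reversed. Levels under other scalings moved by factors of 0.991 to 1.02. The number of members past the threshold moved as follows, and the cause was not tested. Where the number of all genes called in the same fit is not given below, nothing is read from a member count. With at least 10 counts in every library, which removes members from the test, it was 0 in place of 2 for Pds5a-KO siGLO against WT siGLO, 2 in place of 5 for Pds5b-KO siGLO against WT siGLO, 1 in place of 2 for siPds5b in Pds5a-KO, and 2 in place of 4 for dual-depleted against WT siPds5b. With only the conditions compared it was 1 for Pds5a-KO siGLO against WT siGLO, 1 in place of 0 for siStag2, and 0 in place of 1 for the interaction. With DESeq2 it was 1 for siStag2 and 2 for the interaction, and without a filter 2 for the interaction. With the replicate number as a block it was 4 for siPds5b in Pds5a-KO, 1 for siStag2 and 2 for the interaction.

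Without 1 library, the number ranged from 1 to 2 for Pds5a-KO siGLO against WT siGLO, 2 to 6 for Pds5b-KO siGLO against WT siGLO, 1 to 3 for Pds5a-KO siGLO against Pds5b-KO siGLO, 2 to 4 and 3 to 4 for dual-depleted against WT siGLO and WT siPds5b, and 1 to 2 for the interaction. In the same order, the calls over all genes ranged from 1763 to 2584, 1704 to 2611 and 1722 to 2683. They ranged from 3836 to 4505 and 3581 to 4365 for the dual-depleted comparisons, and from 121 to 232 for the interaction. In comparisons whose libraries share only a number, the block moved *Isg15* past the threshold for dual-depleted against WT siGLO (adjusted p = 0.00787) and WT siPds5b (adjusted p = 0.00697), and *Herc6* for the interaction (adjusted p = 0.00207), where 13 in place of 3 pathway genes were then higher, and changed no other member's call there outside the comparisons with Pds5b-KO siGLO. Counts from the comparisons with Pds5b-KO siGLO describe the values that chose *Herc6* and support nothing. Of the 5 genes closest to *Herc6* and to *Isg15*, 1 was shared when 21 libraries replaced the 7 means.

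Over all genes, fitting only the conditions compared gave 1810 in place of 2873 calls for Pds5a-KO siGLO against Pds5b-KO siGLO, 524 in place of 1136 for siPds5b in Pds5a-KO, 8 in place of 14 for siStag1, 99 in place of 335 for siStag2 and 134 in place of 222 for the interaction. DESeq2 gave 72, 775 and 410 and the block 48, 677 and 389 for the last 3, and WT siPds5b had 4 and 3 in place of 1. Of the pathway genes, 32 with DESeq2 and 34 with the block rose under siPds5b in Pds5a-KO in place of 20, and 13 in place of 8 fell in Pds5a-KO siGLO against WT siGLO with either, 5 with at least 10 counts in every library and 3 with only the conditions compared. Members with few reads, *Irf7*, *Ifit1* and *Ifih1*, are limited by depth.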
